A study of Mus musculus with 117 samples.

Results

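The transcription factors that set and keep hepatocyte identity were followed through the chromatin state maps of hepatocytes from 9 inbred mouse strains. The 9 genes, listed by name, were Hnf4a, Foxa1, Foxa2, Foxa3, Cebpa, Cebpb, Onecut1, Prox1 and Nr5a2, out of the 21631 protein-coding genes of the autosomes and chromosome X. Each gene was taken with 5 kb on either side, and this window was cut into 200-bp bins. The windows held 1911 bins in all, of 13168874 in the genome, from 59 bins at Cebpb to 641 at Nr5a2.

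The wild-derived strains were WSB/EiJ, CAST/EiJ and PWK/PhJ, and the others C57BL/6J, 129S1/SvImJ, NOD/ShiLtJ, A/J, NZO/HlLtJ and DBA/2J. All animals were females 12 weeks old with no treatment named in the labels, and the cells were hepatocytes from liver. Chromatin immunoprecipitation with sequencing (ChIP-seq) was done for the histone marks H3K4me1, H3K4me3, H3K27ac and H3K27me3 in 3 mice of each strain, with 1 input library a strain, which made 117 libraries. The deposited map of a strain combines its mice and gives each bin 1 of 14 states, so a strain is 1 value, and the spread given is between strains, not between mice. The marks that make up a state are not given in the sources used here, so a state number is used only as a name. The sequencing depth behind each map is unknown. The strains are related to one another, so their values are not fully independent.

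Hnf4a encodes a nuclear receptor that binds the regulatory regions of a large part of the genes active in hepatocytes. Foxa1, Foxa2 and Foxa3 encode forkhead factors that can bind compacted chromatin and open it for other factors during liver development. Cebpa and Cebpb encode basic leucine zipper factors of metabolic and acute phase genes, Onecut1 a cut homeodomain factor, Prox1 a homeobox factor needed for the growth of the liver bud, and Nr5a2 a nuclear receptor of bile acid and cholesterol genes. These factors are known to bind the control regions of one another's genes and so form a network.

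The annotation table gives 14 starts for the 9 genes, 1 to 3 a gene, numbered here from the one farthest upstream. Sequences of the 250 bases before a start are shown for Hnf4a and Nr5a2, because each has 1 start in state 3 and 1 in state 1, and for Foxa1 and Cebpa, whose starts were in state 3 in every strain. They are RefSeq sequence of GRCm38.p6, written 5′ to 3′ along the gene's own strand, and capitals mark matches to the motifs named below. The stretches are chr2:163506607-163506856 (plus strand) for Hnf4a start 1 and chr2:163546905-163547154 (plus) for start 2. Those of Nr5a2 are chr1:136960449-136960698 (minus strand) for start 1 and chr1:136953631-136953880 (minus) for start 2. Foxa1 is shown from chr12:57546112-57546361 (minus) and Cebpa from chr7:35119043-35119292 (plus).
Hnf4a start 1: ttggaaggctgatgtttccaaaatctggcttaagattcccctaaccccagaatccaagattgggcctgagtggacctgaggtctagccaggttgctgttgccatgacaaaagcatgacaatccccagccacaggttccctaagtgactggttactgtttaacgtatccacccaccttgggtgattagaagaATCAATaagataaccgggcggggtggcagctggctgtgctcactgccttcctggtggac
Hnf4a start 2: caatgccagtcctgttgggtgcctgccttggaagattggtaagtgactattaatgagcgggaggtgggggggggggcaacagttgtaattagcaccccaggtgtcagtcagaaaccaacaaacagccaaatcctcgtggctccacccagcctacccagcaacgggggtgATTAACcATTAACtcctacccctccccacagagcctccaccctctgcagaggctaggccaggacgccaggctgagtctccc
Nr5a2 start 1: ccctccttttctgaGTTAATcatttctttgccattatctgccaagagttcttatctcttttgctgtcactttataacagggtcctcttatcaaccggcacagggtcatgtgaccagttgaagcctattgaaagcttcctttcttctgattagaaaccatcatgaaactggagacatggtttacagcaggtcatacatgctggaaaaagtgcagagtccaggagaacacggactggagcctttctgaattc
Nr5a2 start 2: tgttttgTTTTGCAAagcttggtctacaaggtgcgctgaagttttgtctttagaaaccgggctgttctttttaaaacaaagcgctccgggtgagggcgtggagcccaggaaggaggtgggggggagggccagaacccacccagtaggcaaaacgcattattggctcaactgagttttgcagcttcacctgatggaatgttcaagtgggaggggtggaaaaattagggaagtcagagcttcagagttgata
Foxa1: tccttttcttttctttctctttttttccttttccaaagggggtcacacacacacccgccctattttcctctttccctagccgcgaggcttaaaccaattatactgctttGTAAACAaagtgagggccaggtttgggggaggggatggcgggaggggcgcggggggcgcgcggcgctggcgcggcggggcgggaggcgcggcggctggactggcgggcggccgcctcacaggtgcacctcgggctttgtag
Cebpa: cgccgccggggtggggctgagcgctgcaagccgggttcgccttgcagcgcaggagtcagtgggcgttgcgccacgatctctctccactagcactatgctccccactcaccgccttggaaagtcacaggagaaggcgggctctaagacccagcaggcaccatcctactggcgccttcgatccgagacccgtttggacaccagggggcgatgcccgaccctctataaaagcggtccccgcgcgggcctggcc

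The starts of Hnf4a and Nr5a2 were poor in CpG, the base pair step that marks CpG islands where it is frequent. The ratio of CpG observed to that expected from base content was 0.183 at Hnf4a start 1, 0.193 at Hnf4a start 2, 0.172 at Nr5a2 start 1 and 0.431 at Nr5a2 start 2. The median was 0.823 (quartiles 0.679 and 0.956) over the 6586 starts of protein-coding genes that were in state 3 in all strains, and 0.409 over the 970 starts in state 1 in all strains. Hnf4a start 2 and Nr5a2 start 1 were thus in state 3 with ratios below the lower quartile of state 3 starts, near the median of 0.154 for the 2910 starts in state 14. Foxa1 (0.887), Cebpa (0.801), Cebpb (0.985), Onecut1 (0.968) and Prox1 start 1 (0.762) lay within or above those quartiles. Foxa3 (0.610), Foxa2 start 1 (0.376) and Prox1 start 2 (0.563) lay below them, and Foxa2 starts 2 (0.732) and 3 (0.730) within.

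Motifs of the factors were searched on both strands of the 250 bases. Hnf4a start 1 held the ONECUT motif ATCAAT at bases -59 to -54, counted back from the start. Hnf4a start 2 held a pair of HNF1 motifs (GTTAAT, read there as ATTAAC on the strand shown) at -81 to -76 and -74 to -69. Foxa1 had the forkhead motif TGTTTAC, on the other strand, at -141 to -135. Nr5a2 start 1 held GTTAAT at -236 to -231, and start 2 the C/EBP motif TTGCNNAA at -243 to -236. Over the windows of the same length at 32619 annotated starts, ATCAAT was present in 6.69%, GTTAAT in 6.43%, TGTTTAC in 3.19% and TTGCNNAA in 9.62%. The other motifs were TGTTTGC (4.31% of windows, matched at Prox1 start 2), ATCGAT (0.733%), CAAAGTCCA for HNF4 (0.386%) and CAAGGTCA for NR5A (1.34%), the last 3 with no match at these 14 starts. ATCAAT also matched at Foxa2 start 1 and GTTAAT at Foxa2 start 3. No motif's letters overlapped another match.

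All 9 windows lay almost wholly in a few states. State 1 took 43.3% ± 2.58 of the bins of a window on average (SD over 9 strains), state 2 took 20.2% ± 3.45 and state 3 took 14.6% ± 1.63, against means of 7.80%, 3.55% and 2.04% over protein-coding genes. State 14, the most widespread state of protein-coding windows with a mean of 57.1%, took 5.65% ± 1.33. No bin of states 5, 7, 10, 11, 12 or 13 was found at any of the 9 genes in any strain. Such absence was common, in 42.9% of protein-coding genes. In maps of many cells at once, a state in fewer cells and a weaker mark in each cell cannot be told apart.

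Each gene's share of a state was compared, strain by strain, with the mean over protein-coding genes in the same strain, by an exact permutation test (two-sided) that flips the signs of the 9 strain differences, adjusted by the Benjamini-Hochberg method over all 21631 genes. The smallest raw p is 0.0039. For state 1, 26.6% of all protein-coding genes were called higher, and 9 of the 9 factors were (adjusted p = 0.0046 for each, higher in 9 of 9 strains). Without the 5 kb on either side, Cebpa and Cebpb were called lower in state 1 (-8.53 points, adjusted p = 0.0046 for each), and where bins inside other genes were left out, Onecut1 did not pass (adjusted p = 0.15). For state 3 the background was 26.0% called higher, and again 9 of 9 factors were called (adjusted p = 0.0048), of which Onecut1 did not pass without the bins inside other genes (adjusted p = 0.22). For state 14, 35.8% of genes were called lower, and so were 9 of 9 factors (adjusted p = 0.0057). For state 13, 19.8% of genes were called higher and none of the factors, and 68.8% were called lower, with all 9. A gene with no bin of a state in any strain always gets the smallest p, so such a call only restates the absence. This was so at all 9 factors for state 13, and 45.3% of genes had no state 13 bin. Other such cases were state 14 at Cebpb and Prox1, and state 1 at Cebpa and Cebpb without the 5 kb. The same held for state 2 at Foxa2, state 4 at Foxa2 and Foxa3, and state 8 at Cebpb. It also held for state 9 at Cebpb, Prox1 and Nr5a2. The lower calls counted below for states 2, 4, 8 and 9 include these. State 2 divided the group. It was called higher at 6 factors, with a background of 19.9%, and lower at Foxa1 and Foxa2, with a background of 67.0%. Foxa3, at 2.83% ± 4.58 of its window in state 2, did not pass (adjusted p = 0.70). State 4 was called higher at 3 factors (background 18.2%) and lower at 3 (63.6%), state 6 higher at 3 (18.5%) and lower at 4 (58.2%), and state 8 higher at 2 (23.5%) and lower at 5 (60.2%). State 9 was called lower at 6 factors (66.1%). These shares lay nearer to their backgrounds than those of states 1 and 3.

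**Figure D1:**
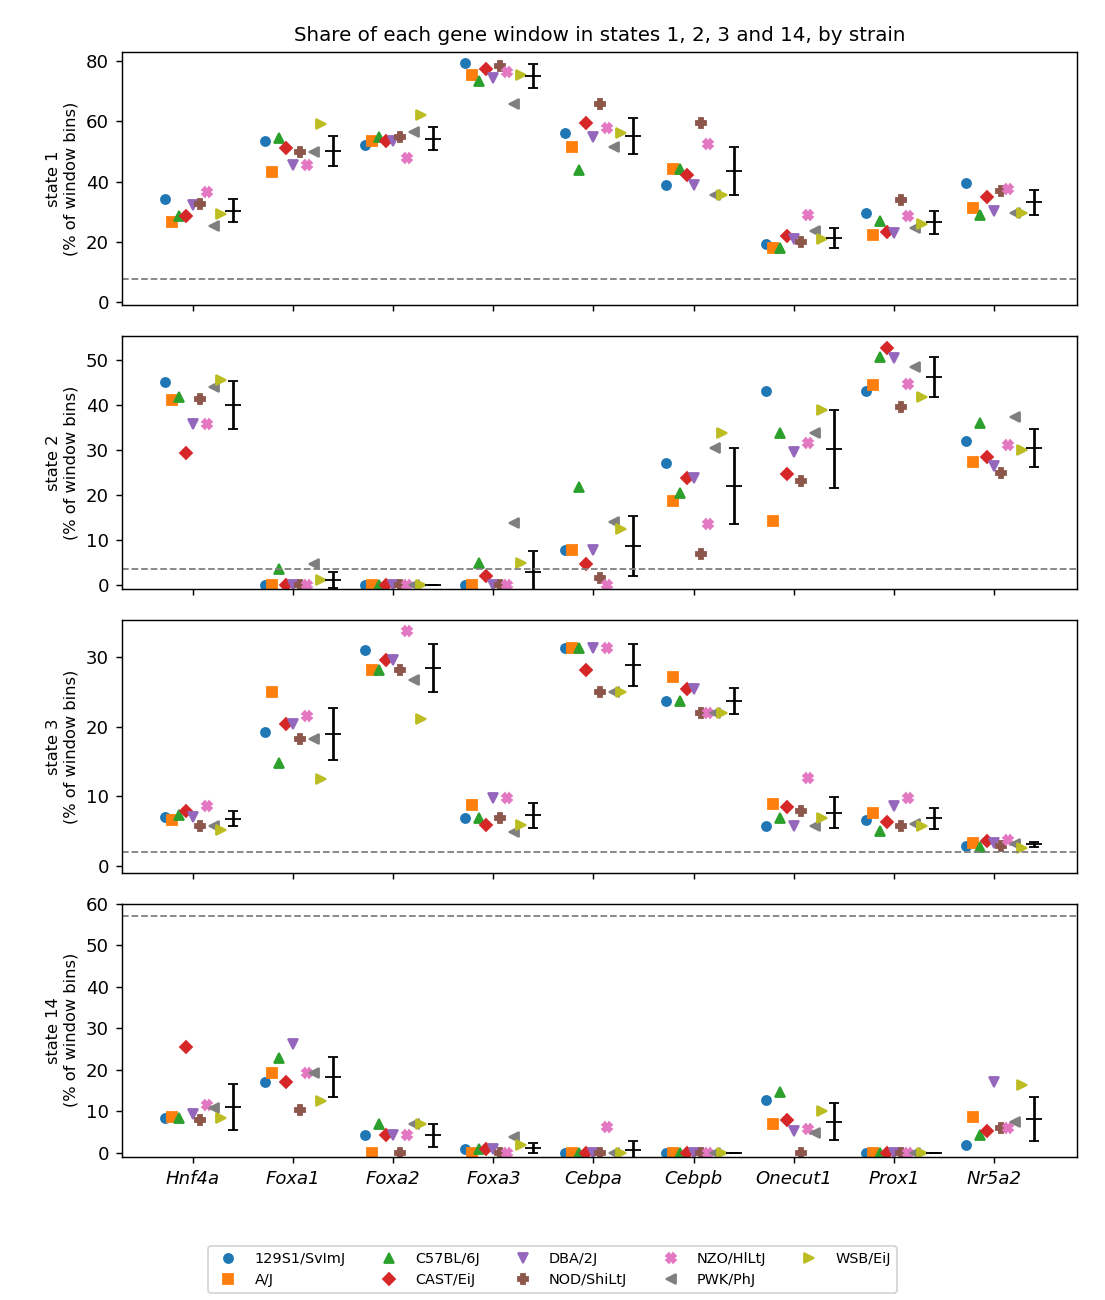
Share of each gene window in states 1, 2, 3 and 14 (percent of 200-bp bins). Each symbol is 1 strain, the bar to its right gives the mean and SD over 9 strains, and the dashed line is the mean over protein-coding genes. Every strain lies above the line in states 1 and 3 and below it in state 14, and 1 CAST/EiJ value of 25.5% stands above the other strains of Hnf4a in state 14.

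At Hnf4a, state 2 was the leading state by its mean, with 29.4% of the window at the lowest (CAST/EiJ), a median of 41.5% and 45.7% at the highest (WSB/EiJ). State 1 ran from 25.2% to 36.7% with a median of 29.4%, and led in NZO/HlLtJ (36.7%, against 35.7% in state 2), and state 3 from 5.25% to 8.66% with a median of 7.09%. The gene has a known pair of promoters, an upstream one named P2 and a downstream one named P1, which is the one active in adult hepatocytes. The data separated the starts. Start 1, at position 163506857 of chromosome 2, was in state 1 in 9 of 9 strains, and the nearest state 3 bin was 32800 to 33600 bp away. Start 2, at 163547155, was in state 3 in 9 of 9 strains, in an unbroken run of 2600 to 3200 bp (median 2800). Of the 17274 protein-coding genes with an annotated start, only 3.87% had their farthest upstream start in state 1 in all strains. A further 400 bp of state 3 shared by all strains lay inside the gene before start 2, at -6554 to -6155 bp from it. This stretch was 721 bp from the annotated start of the non-coding gene Hnf4aos, which overlaps Hnf4a.

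CAST/EiJ stood apart around Hnf4a start 1. A stretch was bounded by the first and the last long run of state 14 that set CAST/EiJ apart, so its values describe that choice. In these 16600 bp, chr2:163502601-163519200, which hold the start, 60 of 83 bins (72.3%) were in state 14 in CAST/EiJ. The count was 8 in NZO/HlLtJ, 5 in PWK/PhJ and 0 in the other 6 strains, where states 2 and 6 filled most of the stretch (63 and 13 bins in 129S1/SvImJ, 29 and 38 in DBA/2J). Over the whole window state 14 took 25.5% in CAST/EiJ and 7.87% to 11.5% in the other 8 strains, so the ranges do not overlap. The start bin itself kept state 1 in CAST/EiJ, and its state 3 run at start 2 was 3200 bp. The first bin of this stretch also touches the neighbouring gene R3hdml. With 1 map a strain, no test of 1 strain against the rest was made. CAST/EiJ differed from the other strains at 33.7% of the bins of Hnf4a on average, and those differed from the rest at 22.2% to 28.3%.

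**Figure D2:**
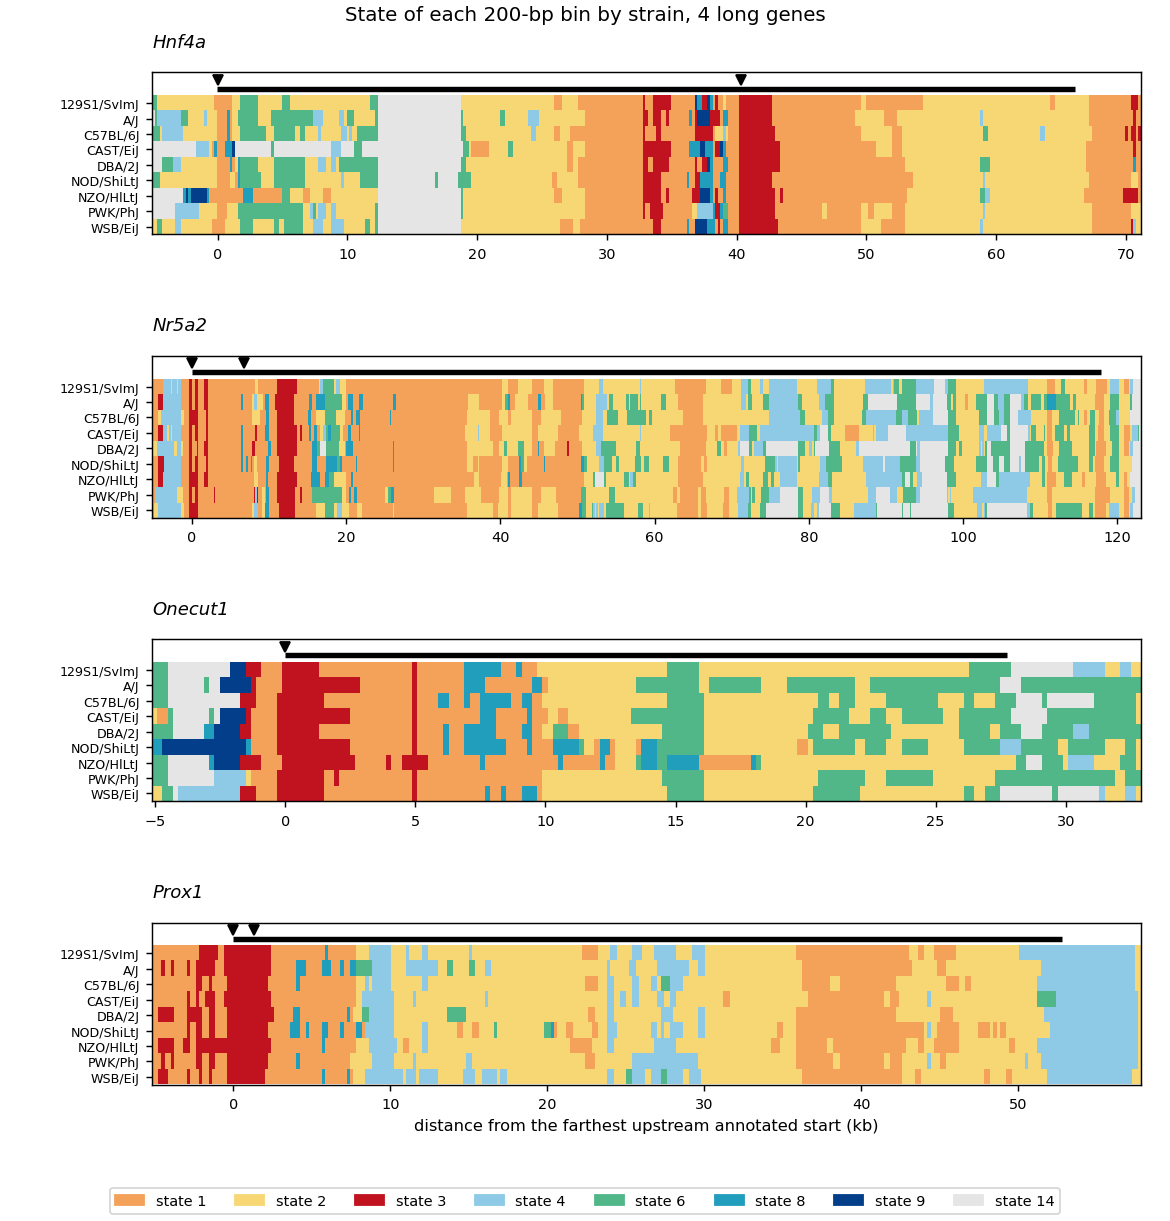
State of every 200-bp bin in each strain at Hnf4a, Nr5a2, Onecut1 and Prox1, against the distance in kb from the farthest upstream annotated start, with transcription running to the right. The black bar is the gene, triangles are annotated starts and colours are states. State 3 marks the second start of Hnf4a and not the first in every row, and the CAST/EiJ row turns to state 14 around the first start.

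The forkhead genes are short and differed from Hnf4a in having little or no state 2. Foxa1 had a median of 50% of its window in state 1 (43.2% in A/J to 59.1% in WSB/EiJ) and 19.3% in state 3 (12.5% in WSB/EiJ to 25.0% in A/J). It also had the largest share of state 14 among the 9 genes, with a median of 19.3% and a range of 10.2% to 26.1%, all upstream of the gene in the track plot. Its start was in state 3 in all strains, in runs of 1200 to 1800 bp. Another 600 bp of state 3 shared by all strains lay 6911 to 7510 bp past the start. The gene Ttc6 overlaps Foxa1, so bins here can belong to either gene.

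Foxa2 was in state 3 over a median of 28.2% of its window, with WSB/EiJ lowest at 21.1% and NZO/HlLtJ highest at 33.8%. State 1 made up most of the rest (median 53.5%, range 47.9% to 62.0%), and neither state 2 nor state 4 was present in any strain. Starts 2 and 3 were in state 3 in 9 of 9 strains, in 1 shared run with a median of 2800 bp. Start 1 was in state 3 in 8 strains and in state 1 in C57BL/6J, where the nearest state 3 bin was 400 bp away. The run was 1800 bp in WSB/EiJ and 2400 to 3000 bp in the other 8 strains. A second stretch of 800 bp lay 5264 to 6063 bp past the nearest start, 148 bp from the nearest annotated start of the non-coding gene 9030622O22Rik.

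Foxa3 had the highest share of state 1 of the 9 genes, with a median of 75.5% and a range of 65.7% (PWK/PhJ) to 79.4% (129S1/SvImJ). Its state 3 run at the start was short, 400 bp at the lowest, 600 bp at the median and 1400 bp at the highest. The 600 bp of shared state 3 at -1261 to -662 bp from the start hold the annotated start of its neighbour Sympk. PWK/PhJ differed from the other strains at 26.8% of the bins of Foxa3, which for the rest was 13.7% to 17.2%. It had 13.7% of the window in state 2 and 5.88% in state 6, where no other strain passed 4.90% and 0.980%.

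Cebpa had the highest mean length of the state 3 run at a start. The run was 2800 bp in PWK/PhJ, 3000 bp in CAST/EiJ, NOD/ShiLtJ and WSB/EiJ, and 4000 bp in the other 5 strains. State 3 covered 25.0% to 31.2% of the window with a median of 31.2%, and state 1 a median of 56.2% (43.8% in C57BL/6J to 65.6% in NOD/ShiLtJ). All 14 bins that touch the gene itself were in state 3 in every strain, so the strains did not differ anywhere within the gene. State 14 was present in NZO/HlLtJ alone, at 6.25% of the window.

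Cebpb was alike in this. All 9 bins that touch the gene were in state 3 in all strains, within a run of 2600 to 3200 bp (median 2800). The run takes in both annotated starts of the non-coding gene A530013C23Rik, just past the gene. State 3 covered 22.0% to 27.1% of the window (median 23.7%). Cebpb and Prox1 had no state 14 bin in any strain, which holds for 3.07% of protein-coding genes. State 1 reached 59.3% in NOD/ShiLtJ and state 2 was 6.78% there, against 35.6% to 52.5% and 13.6% to 33.9% in the other 8 strains.

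**Figure D3:**
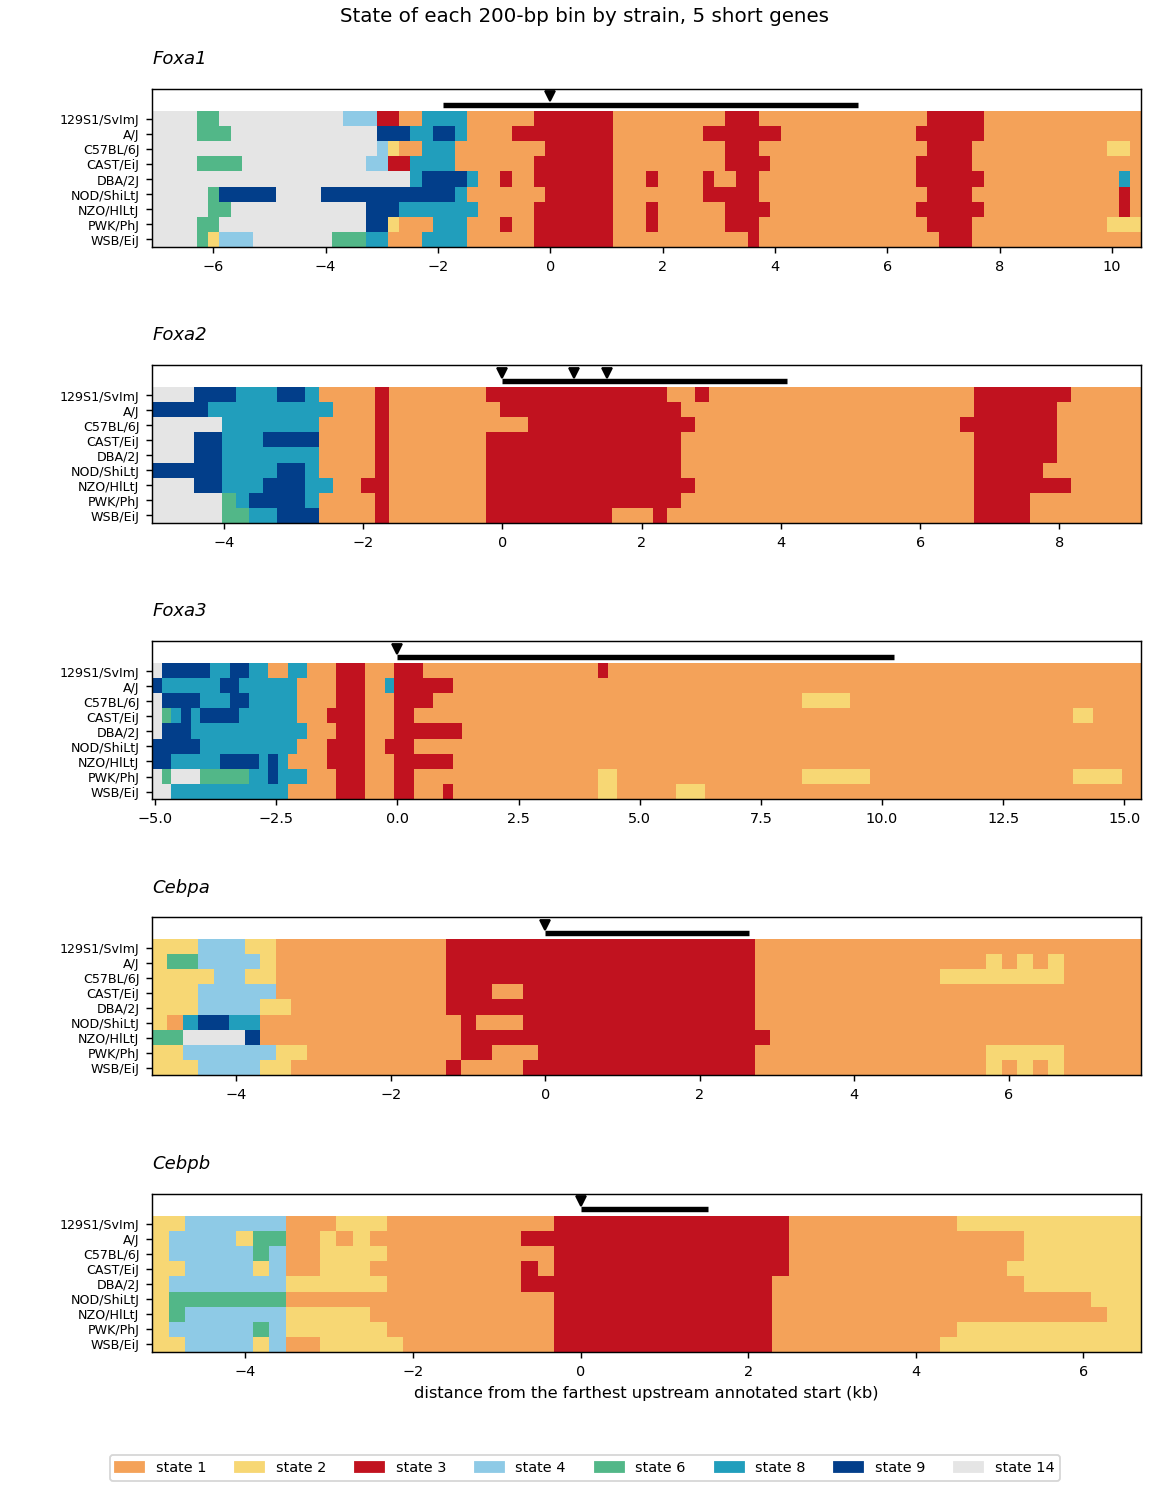
State of every 200-bp bin in each strain at Foxa1, Foxa2, Foxa3, Cebpa and Cebpb, drawn as for the long genes against the distance in kb from the farthest upstream annotated start. The whole of Cebpa and Cebpb is in state 3 in all 9 rows, and the upstream flanks of the forkhead genes change between states 8, 9 and 14 from strain to strain.

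Onecut1 differed between strains more than any other of the 9 factors. A pair of strains had different states at 39.6% of its bins on average (SD 9.65 over 36 pairs), from 23.7% for C57BL/6J and PWK/PhJ to 56.3% for A/J and NZO/HlLtJ, and 93.8% of protein-coding genes were below that mean. Only 16.8% of its bins had the same state in all strains. The exchange of states 2 and 6 made up 37.7% of the differing pairs of bins. State 2 took 14.2% of the window in A/J, 31.6% at the median and 43.2% in 129S1/SvImJ, and state 6 took 8.42% in NZO/HlLtJ, 26.3% at the median and 45.8% in A/J. A/J and NZO/HlLtJ therefore lay at opposite ends for state 6. Within 1 kb of the start only 8.08% of bins differed between strains, against 41.5% elsewhere in the window. The start was in state 3 in all strains, in runs of 1400 to 3000 bp (median 1800), over a stretch that also holds the start of the non-coding gene Gm33562. NZO/HlLtJ had the highest share of state 3, 12.6%, with 5.79% to 8.95% in the other 8 strains.

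Prox1 had the highest share of state 2, with a median of 44.8% (39.7% in NOD/ShiLtJ to 52.7% in CAST/EiJ), and of state 4, with a median of 16.5% (14.6% to 24.4%). Its 2 starts shared 1 run of state 3 of 2400 to 3000 bp in 8 strains and 4800 bp in NZO/HlLtJ. States 9, 13 and 14 were absent in all strains. Bins of Prox1 that differed between strains mostly exchanged state 2 with state 4 (36.5% of differing pairs) or state 1 with state 2 (33.4%). The non-coding gene Prox1os overlaps it.

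Nr5a2 was the longest gene and the second most variable, with 35.1% of bins differing between a pair of strains and 25.9% in 1 state in all strains. Start 1 was in state 3 in 9 of 9 strains, but in a run of only 400 bp in 6 strains and 1200 bp in C57BL/6J, NZO/HlLtJ and WSB/EiJ. Start 2 was in state 1 in 9 of 9 strains. The longest state 3 stretch shared by all strains was 2000 bp at chr1:136947201-136949200, inside the gene and 4430 to 6429 bp past start 2, and it holds no annotated start. State 3 as a share of this long window was low, 2.65% to 3.74%, yet summed to 4044 bp ± 456, more than in 99.8% of protein-coding genes. That rank is not adjusted for window length, which was 641 bins here and 138 at the median over all genes. Its excess over the mean was 1.12 percentage points ± 0.258, the smallest of the 9 genes, and it did not pass when the 5 kb on either side were left out (adjusted p = 0.32) or with 1000-bp bins (adjusted p = 0.064).

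The longest such stretch of state 14 in DBA/2J at Nr5a2, chosen for that value, was 4200 bp inside the gene, chr1:136881801-136886000. It was all in state 14 in WSB/EiJ as well. Of its 21 bins, PWK/PhJ had 12 in state 14 (57.1%), while none was in the other 6 strains. In those 6, state 4 held 11 to 21 of the 21 bins. State 14 took 17.2% of the Nr5a2 window in DBA/2J, 6.08% at the median and 1.87% in 129S1/SvImJ.

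Lengths of the state 3 run could be ordered in part. The means over 9 strains were 3533 bp ± 557 at Cebpa, 3000 ± 714 at Prox1, 2844 ± 240 at Hnf4a start 2, 2778 ± 211 at Cebpb, 2622 ± 353 at Foxa2 starts 2 and 3, 2200 ± 632 at Onecut1, 1400 ± 173 at Foxa1, 778 ± 393 at Foxa3 and 667 ± 400 at Nr5a2 start 1. Neighbours in this order from Cebpa to Onecut1 were closer than the larger of their SDs, as were Foxa3 and Nr5a2. Strain by strain, Cebpa exceeded Prox1 in 7 of 9 strains, Onecut1 exceeded Foxa1 in 8, and Foxa1 exceeded Foxa3 in 8. Prox1 exceeded Hnf4a start 2 in only 3 strains (1 equal), and Foxa3 exceeded Nr5a2 start 1 in 4 (3 equal). Each step from Hnf4a start 2 through Cebpb and Foxa2 to Onecut1 held in 5 strains. Over the 5544 genes whose farthest upstream start was in state 3 in all strains, the median run was 800 bp (quartiles 600 and 1089). Hnf4a start 2 and Foxa2 starts 2 and 3 are not the farthest upstream starts, so these 2 genes were set beside starts of another kind. With that limit, 6 of the 9 genes had a mean run longer than that of at least 98.2% of those genes, Foxa1 longer than 88.2%, and Foxa3 and Nr5a2 start 1 lay among the common lengths. The farthest upstream start was in state 3 in all strains in 32.1% of protein-coding genes with a start and in 7 of the 9 factors, the others being Hnf4a and Foxa2. With 1000-bp bins the count was 3 of 9, against 17.1% of genes. At least 1 start met this in 33.9% of genes and in 9 of 9 factors, a count chosen after the values had been seen.

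**Figure D4:**
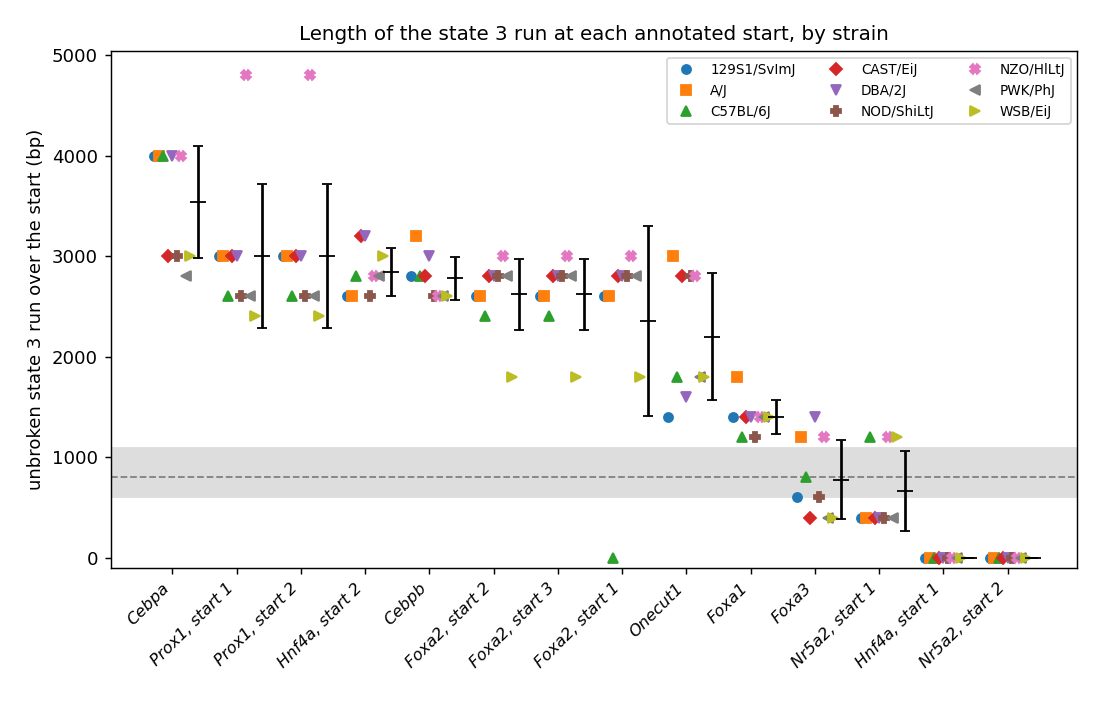
Length in bp of the unbroken state 3 run over each annotated start, where 0 means that the start was not in state 3. Symbols are strains, black bars the mean and SD over 9 strains, the grey band the quartiles and the dashed line the median over 5544 genes with a state 3 start. Runs at Cebpa, Prox1, Hnf4a start 2, Cebpb, Foxa2 starts 2 and 3, Onecut1 and Foxa1 lie above the band in every strain, and those at Hnf4a start 1 and Nr5a2 start 2 are 0.

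The median share of bins in 1 state in all strains was 54.2% over the 9 genes and 51.3% over all genes, and the median share of differing bins was 20.7% and 19.96%. Most protein-coding windows lie in states 13 and 14, however, with a median of 78.8% of bins, against 4.23% at the factors. With states 13 and 14 taken as 1 state, the medians over all genes moved to 70.1% in 1 state in all strains and 12.6% differing, while those of the factors stayed at 54.2% and 20.7%. Where a match within 1 bin was allowed, 12.3% differed at the factors and 15.02% over all genes, so the order of the medians depends on these choices. Among the 5230 genes with at least 50% of bins outside those states, the medians were 31.4% in 1 state in all strains and 31.4% differing. Foxa2 (13.8% differing), Foxa3 (16.3%), Cebpa (16.8%), Cebpb (18.97%), Foxa1 (20.7%), Prox1 (21.3%) and Hnf4a (25.0%) were below that median, and Nr5a2 and Onecut1 above it. Differences were fewer within 1 kb of a start than elsewhere at 7 genes, for instance 11.9% and 35.9% at Nr5a2 and 8.08% and 21.5% at Cebpb. Foxa3 (23.5% and 15.5%) and Cebpa (17.7% and 16.7%) had it the other way round. No strain was the most distant at all genes. NOD/ShiLtJ was farthest from the others at 3 genes, CAST/EiJ and NZO/HlLtJ at 2 each, and PWK/PhJ and WSB/EiJ at 1 each.

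**Figure D5:**
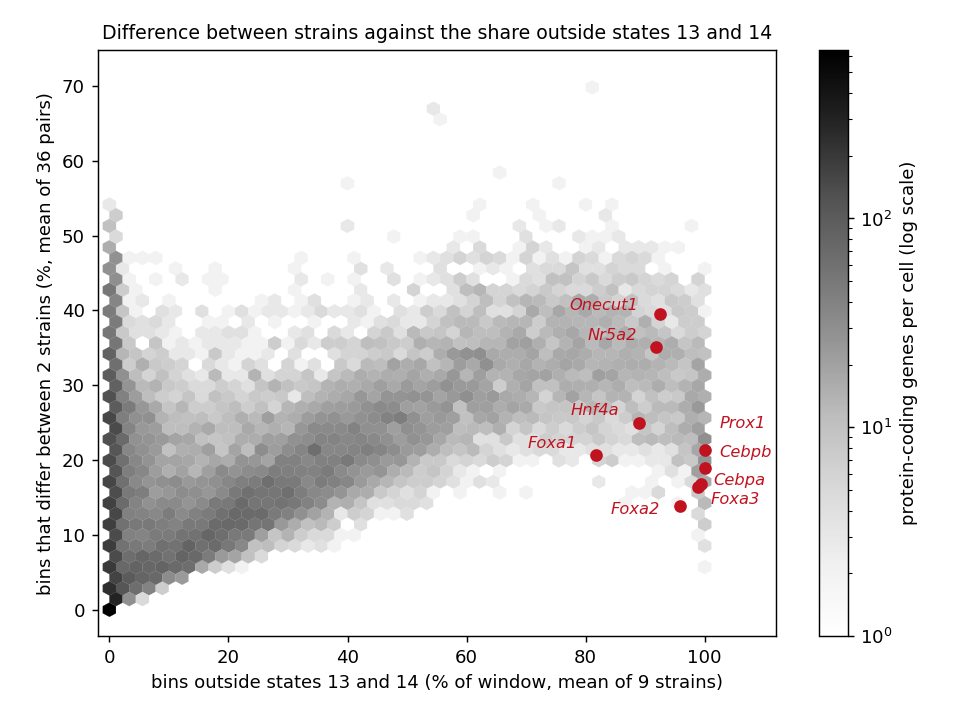
Percent of bins that differ between 2 strains (mean of 36 pairs) against the percent of bins outside states 13 and 14 (mean of 9 strains) for each protein-coding gene window, shaded by the number of genes on a log scale. Red points are the 9 factors, all to the right at 81.8% or more outside states 13 and 14, with Onecut1 (39.6%) and Nr5a2 (35.1%) highest.

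The genes with the most similar mix of states were found by the mean over 9 strains of the distance between state shares, in percentage points of bins that would have to change state. For Hnf4a these were Btd, Slc25a25 (14.9 points) and Agxt, and for Nr5a2 Irs1 (11.5), Snrk and the bile acid receptor gene Nr1h4. Those of Prox1 included Tmprss6 (9.74) and Pon1, and those of Onecut1 were Chka (18.7), the urea cycle gene Cps1, and Cyp2c70. Cebpa was nearest to the apolipoprotein gene Apoe (11.5), Irf2bp2 and Apoc3, and Cebpb to Tob2 (14.6), Gnmt and Apoe. The forkhead genes had other neighbours, Hnrnpa0 (12.5), Ppp1r15b and Gm38457 for Foxa1, Ier2 (11.6), Gm20346 and Wbp1 for Foxa2, and 0610030E20Rik (8.44), Rhbdl1 and Nubp2 for Foxa3. No factor had another of the 9 among its nearest 3. Cebpa and Cebpb were closest within the group of factors, at 18.9 points from each other.

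Of 20 other liver transcription factors, 20 were called higher in state 1 (background 26.6%) and 19 in state 3 (background 26.0%). The farthest upstream start was in state 3 in all strains at 5 of the 12 with an annotated start, not far from the background of 32.1%. The share of bins within 1 kb of it in state 3 ran from 0 at Creb3l3 and 15.2% at Nr2f2 to 82.8% at Ppara and 86.9% at Rxra, against 0 at Hnf4a to 87.9% at Cebpa among the 9 factors. Paralogs divided, with 4 of 8 called higher and 4 lower in state 1, and the same counts in state 3, where 64.9% and 63.7% of all genes were called lower and 0 of the 9 factors. Onecut2, Cebpd and Cebpg are in both lists and were counted among the other liver factors called higher in state 1, so the lists are not separate. Cebpg had its start in state 3 in all strains, with 40.4% of the start window in state 3, and Prox2, in state 3 at its start in 3 of 9 strains, had 15.2%. Target genes of the factors were close to them, with 17 of 19 called higher in state 1 (background 26.6%) and 15 in state 3 (26.0%). Of their starts, 11 of 15 were in state 3 in all strains (32.1%). The enzyme gene Tat and the plasma glycoprotein gene Ahsg were highest at 63.6% of the start window, and the X-linked genes F9 (1.01%) and Otc (0) lowest.

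The 12 factors of other lineages differed from the hepatocyte factors in states 1, 3 and 13. In state 1, 11 of the 12 were called lower (background 64.9%) and 0 higher. All 12 were called higher in state 13 (background 19.8%) and lower in state 3 (63.7%), but also lower in state 14 (35.8%), as the hepatocyte factors were. Of their annotated starts, 0 of 10 were in state 3 in all strains (background 32.1%). The pancreatic factor gene Pdx1 had 99.9% of its window in state 13. Markers of cell types gave a check on the labelled cells. Of the 8 hepatocyte markers, 7 are also in the list of targets, so the lists are not separate evidence. All 8 were called higher in states 1 and 3 (backgrounds 26.6% and 26.0%). Of those with a start, 5 of 6 had it in state 3 in all strains (background 32.1%), with 36.4% (Serpina1a) to 63.6% (Ahsg) of the start window in state 3. Of the markers of bile duct, endothelium, Kupffer cells, stellate cells and lymphocytes, 0 of 12 with a start did, 2 of 22 were called higher in state 1, and 1 of 22, in the Kupffer cell list, in state 3.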

How the data were processed

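ChIP-seq libraries of 4 histone marks and input from hepatocytes of 9 strains were grouped by the strain in their labels. The authors deposited 1 segmentation per strain, in which each interval carries a state number from 1 to 14, a category and not a count, signal or score. Per the submitters' processing notes the build is mm10, and FastQC 0.11.5 and MACS 1.4.2 were used, with no role stated. The segmentation tool, aligner, depth and mark content of the states are not given in the sources used here. A file joining all strains was identical to the strain files laid end to end and was not used.

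Intervals were written as 200-bp bins. Genes, starts and sequences came from RefSeq tables of GRCm38.p6, the same build. Starts were annotated for 17274 of 21631 protein-coding genes. A bin belonged to a window if it touched the gene or the 5000 bp on either side. State shares were tested as described with the results, at an adjusted p under 0.05. Neighbouring bins and strain pairs are not independent, so agreement between strains was described and not tested. The state names of a strain were compared as deposited. Alternatives varied the padding, bin size, gene set, starts and strains, left out single-bin segments and bins inside other genes, merged states 13 and 14, and matched states within 1 bin. The code was tested on simulated data.

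The 9 genes, the gene lists and the tests were chosen with earlier results of these data known. Genes named besides the 9 were, by rule, the 3 genes closest in state shares to each and up to 4 of each list, from the ends of its order by state 3 share near the start. The lists name other liver factors, paralogs, targets, factors of other lineages and markers of 6 cell types, and 1 target symbol had no match. Of the genes this rule names, 1 is not reported here. Python 3.11.15, numpy 2.4.6, pandas 2.3.3 and matplotlib 3.10.9 were used.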

Additional observations from a re-analysis of the deposited data

Results flagged for a closer look

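A strain was looked at again where its value lay far from those of the other 8. This held for 13 of 60 sets of 9 strain values, judged by the gap to the nearest other strain as a share of the range. For normally distributed values about 1 in 20 sets, or 3, would lie as far apart by chance. That rate need not hold here, since some sets are mostly 0. State 6 at Foxa2 was 0 in 7 strains and state 14 at Cebpa was 0 in 8. Whether 13 sets are more than chance gives was therefore not tested. The sets of a gene share bins and are not independent.

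At Hnf4a, CAST/EiJ had 25.5% of the window in state 14, with 7.87% to 11.5% in the other strains. PWK/PhJ stood apart at Foxa3 in 5 measures. It had 65.7% of the window in state 1 (73.5% to 79.4% elsewhere), 13.7% in state 2 (0 to 4.90%), 5.88% in state 6 (0 to 0.980%) and 3.92% in state 14 (0 to 1.96%), and it differed from the other strains at 26.8% of bins (13.7% to 17.2%).

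NZO/HlLtJ was highest in 3 sets. Its state 3 run at Prox1 was 4800 bp (2400 to 3000 elsewhere), its share of state 3 at Onecut1 was 12.6% (5.79% to 8.95%) and its share of state 14 at Cebpa was 6.25%, where the other 8 strains had 0. At Foxa2, WSB/EiJ had the shortest state 3 run, 1800 bp (2400 to 3000), and the highest share of state 6, 2.82% (0 to 1.41%). A/J had the longest run at Foxa1, 1800 bp (1200 to 1400), and NOD/ShiLtJ the highest share of state 6 at Cebpb, 11.9% (0 to 3.39%).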

How the results depend on the processing

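The start in state 3 in all strains was the result that moved, from 7 of 9 factors to 3 with 1000-bp bins, where the share over all genes was 17.1%; the cause was not tested. It lay between 6 and 9 under the other alternatives, and without C57BL/6J it was 8, since Foxa2 then passed. With each strain left out in turn it ran from 7 to 8, and the counts of factors called higher in states 1 and 3 (9), higher in state 13 (0) and lower in state 14 (9) did not move. Over all 18 alternatives the calls ran from 7 to 9 for state 1, 8 to 9 for state 3, and stayed at 0 and 9 for states 13 and 14. With no padding, Cebpa and Cebpb turned to lower in state 1 (-8.53 points, adjusted p = 0.0046), since their gene spans held only state 3. Onecut1 lost its calls in states 1 and 3 (adjusted p = 0.15 and 0.22) where bins inside other genes were left out. The median share of bins in 1 state in all strains ran from 50.7% to 60.5%, and that of differing bins from 12.3% to 22.0%, while over all genes they ran from 50.3% to 70.1% and from 12.6% to 20.5%, the far ends (70.1% and 12.6%) with states 13 and 14 merged. No paired analysis was possible because each strain's mice are combined in 1 segmentation.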
